A study of Caenorhabditis elegans with 2 samples.

Results

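The col genes of Caenorhabditis elegans, named col and a number in the Ensembl annotation, encode most of the collagens of the cuticle. They were described across the peak lists of a chromatin immunoprecipitation and sequencing (ChIP-seq) experiment on HLH-12, a transcription factor of the basic helix-loop-helix class. All protein-coding genes with such a name on the nuclear chromosomes were taken, which gave 156 of 19973 genes. The worms were hermaphrodite young adults of strain OP538 (unc-119(tm4063) III; wgIs538), whose transgene wgIs538 carries HLH-12 fused at its C-terminal end to GFP-FLAG. They were collected 64 hours after synchronization as starved L1 larvae that had been obtained by bleaching. An antibody against GFP was used on sonicated chromatin of whole animals, so the lists do not tell in which cells a site was occupied. The labels give 2 biological replicates of this 1 group and no second genotype, stage or treatment. A library from worms without the tagged protein was not analysed here, and for each list the values are those the authors deposited.

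Cuticle collagens are small proteins with repeats of glycine and 2 further residues, written Gly-X-Y, in which proline and hydroxyproline are frequent. The epidermis makes them anew before each molt, in waves that differ between stages, and they are hydroxylated, trimmed and cross-linked into the layered coat that gives the animal its shape. HLH-12 is known as a partner of HLH-2 in the leader cells of the migrating gonad. Factors of this class bind E-boxes, the sequence CANNTG, which reads as the same pattern on both strands. Here 155 of the 156 genes encoded at least 1 run of 3 or more Gly-X-Y triplets in the annotated reading frame. The exception was col-17, whose annotated frame held none, while another frame of the same coding sequence held 51 such triplets. The proteins had a median of 304 residues, with a range from 154 to 740, and a median of 51 Gly-X-Y triplets in such runs. The genes were short, with a median length of 1220 bp against 2027 bp over all protein-coding genes. Their coding sequence had a median GC content of 55.1%, with a range from 43.4% to 62.6%, against 42.5% over all protein-coding genes.

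The sequences below are the 101 bases centred on peak summits, the points of highest signal, in col genes, read 5′ to 3′ on the plus strand of ce11 from the RefSeq genome of that assembly. The first 3 are the summits at col genes that reached the authors' most stringent list, and capitals mark the bases of an annotated tRNA gene.
col-185 upstream region, X:13511923-13512023: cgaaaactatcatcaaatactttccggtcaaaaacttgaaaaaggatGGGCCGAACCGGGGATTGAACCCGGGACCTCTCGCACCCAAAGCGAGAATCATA
col-85 intron, II:12494701-12494801: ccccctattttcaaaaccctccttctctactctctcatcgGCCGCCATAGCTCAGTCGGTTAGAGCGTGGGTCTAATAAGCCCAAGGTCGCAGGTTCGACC
col-99 intron, IV:144022-144122: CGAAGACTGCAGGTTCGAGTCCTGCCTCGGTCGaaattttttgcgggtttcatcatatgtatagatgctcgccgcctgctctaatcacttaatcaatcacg
The next 3 are among the strongest promoter summits away from such genes, and no CANNTG was found in them, so that none of their bases is in capitals.
col-85 promoter window, II:12495856-12495956: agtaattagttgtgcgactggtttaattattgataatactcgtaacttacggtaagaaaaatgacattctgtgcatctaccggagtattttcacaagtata
col-135 promoter window, IV:15132645-15132745: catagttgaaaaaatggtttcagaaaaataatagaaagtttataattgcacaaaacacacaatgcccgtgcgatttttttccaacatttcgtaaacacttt
col-176 promoter window, X:10076968-10077068: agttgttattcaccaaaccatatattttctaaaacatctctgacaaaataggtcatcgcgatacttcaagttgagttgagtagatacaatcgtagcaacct
The last 3 lie in coding exons of col genes, with CANNTG in capitals.
col-175 coding exon, X:9234066-9234166: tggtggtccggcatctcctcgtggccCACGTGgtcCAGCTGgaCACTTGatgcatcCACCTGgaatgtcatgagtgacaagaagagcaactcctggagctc
col-98 coding exon, III:13019540-13019640: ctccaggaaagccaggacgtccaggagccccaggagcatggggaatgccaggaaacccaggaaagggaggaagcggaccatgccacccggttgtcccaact
col-68 coding exon, II:105600-105700: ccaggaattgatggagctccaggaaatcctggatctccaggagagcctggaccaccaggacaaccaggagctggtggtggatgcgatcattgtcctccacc
The col-175 window held 4 E-boxes, and the col-98 and col-68 windows held none. The col-98 and col-68 summits lie in stretches that encode Gly-X-Y runs, and the pooled col-175 summit lies in a short gap between such stretches.

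Peaks from 4 lists were compared. The most stringent list of the authors, cut by irreproducible discovery rate (IDR, which weighs how alike peaks stand in repeated lists), held 245 peaks. The relaxed list called on both replicates together, the pooled list, held 6676 peaks, and the relaxed lists of replicate 1 and replicate 2 held 19792 and 22570. The authors label the pooled list as peaks and background for input to IDR, so many of its entries need not be binding sites. Its deposited −log10 q value was below 0.1 at 55.8% of the nuclear peaks and above 1 at 4.71%. Promoters were taken as the 1000 bp before and the 200 bp after the 5′ end of each gene, and a gene counted where a summit lay in its promoter or in its gene body. Peak signal is the authors' own value, and how it was scaled was not given in the sources used here. In the pooled list it ran from 26.3, with a median of 30.6, and in the IDR list from 57.3. Small RNA genes (tRNA, snoRNA, snRNA, rRNA and microRNA genes) lay within 200 bp of 74.3% of the nuclear IDR summits and of 8.18% of the pooled ones. Pooled counts of genes are therefore also given without summits at such genes, while densities per length include all summits. Read depth is unknown, and with 1 group of worms there is no contrast to test.

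The share of col promoters with a summit was near that of all protein-coding genes, a little below it in the pooled list. The 2 replicates lay on opposite sides of that background. A promoter summit was present at 11 of 156 col genes (7.05%) in the pooled list, where 9.03% of all protein-coding genes had one. In replicate 1 there were 43 (27.6%), against 23.4% of all genes. In replicate 2 there were 34 (21.8%), against 25.8% of all genes. The IDR list had 1 (0.641%), against 0.365% of all genes. The difference from the background thus changed sign between the replicates. Nearer to the 5′ end, from 500 bp upstream, 3 col genes (1.92%) had a pooled promoter summit, against 5.82% of all genes. In the pooled list cut at its median signal it was 4 (2.56%), against 4.78%. The pooled share was below the background in these settings as well. These are small counts, and the 3 and the 4 genes are part of the same 11, so they are no separate evidence. With each replicate cut to the strongest peaks, as many as the pooled list has, replicate 1 gave 14 (8.97%), against 8.88%, and replicate 2 gave 13 (8.33%), against 8.59%, so neither replicate by itself lay far below. Counting either window, 37 col genes (23.7%) had a pooled summit, against 22.7% of all genes. In any of the lists 110 (70.5%) had a summit, against 71.2% of all genes, and 46 col genes had none in any list.

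**Figure D1:**
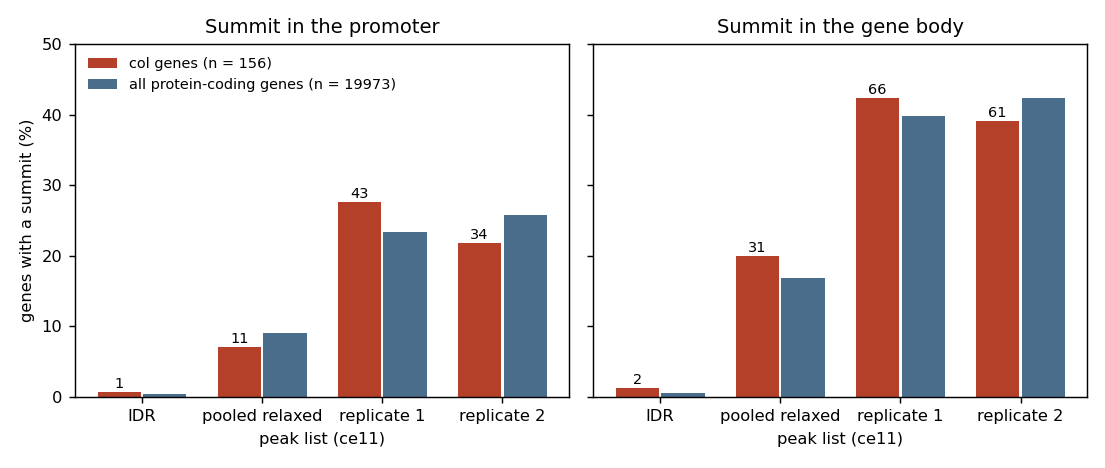
Share of genes (%) with a summit in the promoter (left) or the gene body (right) in each peak list, for the 156 col genes (red, number of genes above the bar) and all 19973 protein-coding genes (blue). Promoter shares of col genes were above the background in replicate 1 (27.6% against 23.4%) and below it in replicate 2 (21.8% against 25.8%).

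The 3 col genes with an IDR summit each had it at a tRNA gene. The only one in a promoter belonged to col-185, where the peak at X:13511755-13512190 had its summit 876 bp upstream of the 5′ end, inside the tRNA-Pro gene H06A10.T1. Its signal was 52.9 in replicate 1, 21.1 in replicate 2 and 72.8 in the pooled list, with a replicate mean of 37 ± 22.5 (SD, n = 2). Replicate 1 was therefore far above replicate 2 at this site. In col-85 the peak at II:12494533-12494968 had its summit in an intron 344 bp downstream of the 5′ end, inside the tRNA-Ile gene T21B4.T1. The signal was 46.0 in replicate 1, 34.2 in replicate 2 and 79.7 in the pooled list, a replicate mean of 40.1 ± 8.36 (SD, n = 2). In col-99, which encodes a transmembrane collagen and not a cuticle collagen, the peak at IV:143854-144289 lay in an intron 3847 bp downstream of the 5′ end and 18 bp from the tRNA-Arg gene F29C4.T1. The signal was 28.8 in replicate 1, 32.9 in replicate 2 and 59.6 in the pooled list, a replicate mean of 30.9 ± 2.93 (SD, n = 2). Here replicate 2 was the higher, and the replicates were closest. No col gene had an IDR promoter summit away from small RNA genes, and 0 of 156 allows a share of up to 1.92%. Limits of this kind take a count of 0 as up to 3 and cover counting error only. The part of the neighbouring tRNA genes in these results was not tested.

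Read against the sequences shown above, the col-99 and col-85 windows both hold GTTCGA, a form of the core of the B box of tRNA promoters, inside the tRNA bases. This motif was searched on both strands and can share at most 1 end base with CANNTG. Over all col gene body summits of the pooled list, 5 of 32 (15.6%) had GTTCGA within 50 bp, against 5.25% of the summits in all gene bodies. Among the promoter summits it was 1 of 11 (9.09%), against 5.28%. That promoter summit was the one of col-111, 47060 bp from the nearest small RNA gene, and the col-185 window held no GTTCGA. Of the gene body summits with the motif, that of col-104 lay 27396 bp from the nearest small RNA gene. Other forms of the B box were not searched.

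Outside small RNA genes, 10 col genes (6.41%) had a pooled promoter summit, against 8.37% of all genes, and 1 (0.641%) had one at a small RNA gene, against 0.681%. The strongest of the 10 was that of col-63 at I:8245205-8245640 with its summit 460 bp upstream in intergenic sequence. Its signal was 36.8 in replicate 1, 16.1 in replicate 2 and 52.2 in the pooled list, a replicate mean of 26.4 ± 14.6 (SD, n = 2). It ranked 307 in the pooled list, so that it lay below the lowest IDR signal of 57.3. All of the other 9 were weaker, between 26.3 and 34.0, with 2 of them, col-85 and col-135, above the pooled median of 30.6. In col-85 another peak, 811 bp upstream and in a coding exon of the neighbouring gene T21B4.3, had a signal of 14.6 in replicate 1, 12.4 in replicate 2 and 34.0 in the pooled list. In col-135 the summit 898 bp upstream had 19.4, 10.4 and 30.8 in the same order. Both replicates carried these peaks, and in both genes replicate 1 was the higher.

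The remaining 7 promoter summits were divided between peaks seen in both replicates and peaks seen in 1. In col-38 the summit, which the promoter of the ribosomal protein gene rpl-5 shares, had a signal of 21.5 in replicate 1, 15.8 in replicate 2 and 29.8 in the pooled list. In col-106 the values were 15.9, 15.6 and 28.5, and in col-71, whose summit also lies in the promoter of Y49F6B.2, they were 22.4, 16.0 and 26.3. These 3 genes thus had a peak in every relaxed list, all below the pooled median of 30.6. The summit of col-44 lay 621 bp upstream and in a coding exon of its neighbour col-9, with a signal of 22.4 in replicate 1 and 30.2 in the pooled list, and had no replicate 2 peak. The same held for col-111, with 25.9 in replicate 1 and 29.0 in the pooled list, where 44.1% of the 31-base words of the peak recur elsewhere in the genome. It held too for col-102, with 18.3 and 26.8, whose summit lies in the promoter of the arginine methyltransferase gene prmt-4 as well. For col-176 only replicate 2 had an overlapping peak, with 21.3 there and 30.1 in the pooled list.

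**Figure D2:**
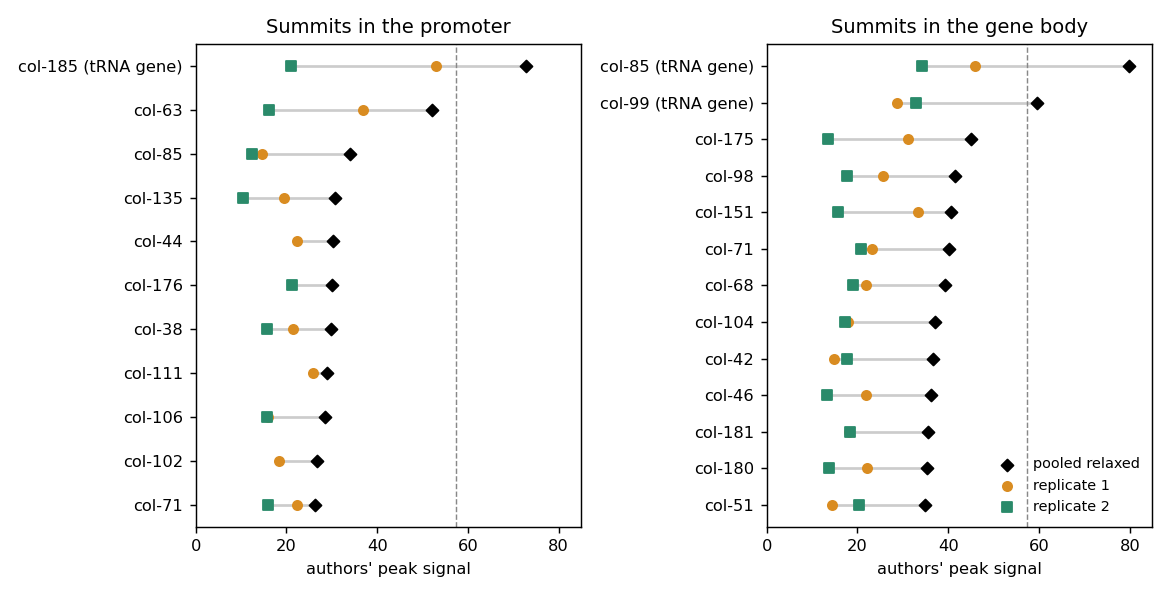
Authors' peak signal of the 11 pooled promoter summits (left) and the 13 strongest pooled gene body summits (right) of col genes in the pooled list (black diamonds), replicate 1 (orange circles) and replicate 2 (green squares). The dashed line is the lowest IDR signal, 57.3, and only the summits at tRNA genes in col-185, col-85 and col-99 lie to its right.

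The replicates shared part of their col promoters. A promoter summit was present in both replicate lists at 15 col genes (9.62%), against 9.14% of all genes. These were 34.9% of the col genes found in replicate 1 and 44.1% of those found in replicate 2, where over all genes the shares were 39.1% and 35.4%. The summits of the 2 replicates lay within 200 bp of each other at 9 col genes (5.77%), against 5.88% of all genes. A further 28 col genes had a promoter summit in replicate 1 alone and 19 in replicate 2 alone. Where there was a summit, its median signal was 15.2 in replicate 1, against 15.7 over all genes, and 12.5 in replicate 2, against 13.3. The pooled medians were 30.1 and 31.1. Col promoter signals were therefore close to those of other genes in each list. The highest in replicate 2 was 21.3 over 34 col genes and 85.4 over 5155 genes, and a larger set can reach a higher maximum.

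The position of the summits around the 5′ end was compared next. No pooled summit lay within 200 bp of a col 5′ end, and 0 of 156 allows a share of up to 1.92%, against 3.51% of all protein-coding genes. In the longer replicate lists 14 col genes (8.97%) had 1 in replicate 1, against 8.74% of all genes, and 12 (7.69%) in replicate 2, against 9.87%. The lack of summits at the 5′ end was thus seen in the pooled list and not in replicate 1. This reach was not among the planned results and spans the empty steps of the pooled profile. The limit therefore describes this window and is no test of a gap. Downstream, the number of summits per 100 genes in 200 bp steps rose to 5.77 between 1000 and 1200 bp in the pooled list, where all genes had 1.46. In replicate 1 the same step held 10.9, against 4.04, and in replicate 2 it held 7.69, against 4.64. All 3 relaxed lists were higher for col genes from 600 to 1200 bp, a stretch that lies inside a col gene of the median length.

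**Figure D3:**
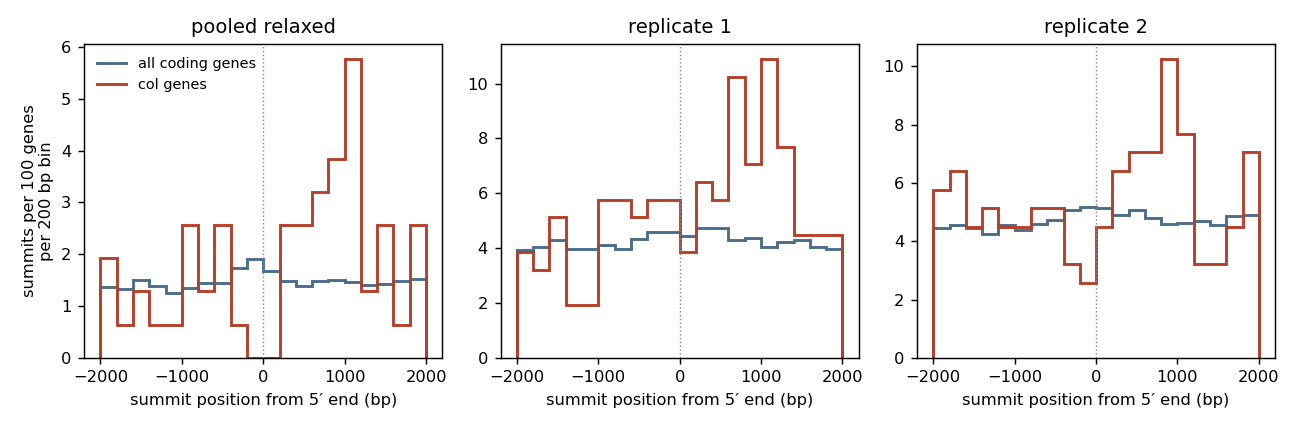
Summits per 100 genes in 200 bp bins over the 2000 bp on each side of the 5′ end (upstream negative), for col genes (red) and all protein-coding genes (blue) in the 3 relaxed lists. Between 1000 and 1200 bp downstream the col genes had 5.77 against 1.46 in the pooled list, 10.9 against 4.04 in replicate 1 and 7.69 against 4.64 in replicate 2.

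Within gene bodies, 31 col genes (19.9%) had a pooled summit, against 16.8% of all genes. Without summits at small RNA genes the count was 27 (17.3%), against 15.9%. In replicate 1 it was 66 (42.3%), against 39.8%, and in replicate 2 it was 61 (39.1%), against 42.4%. Both replicate lists had a gene body summit at 35 col genes (22.4%), against 24.7% of all genes, and with the 2 summits within 200 bp of each other at 23 (14.7%), against 11.7%. The IDR list had 2 (1.28%), against 0.536%. The shares of genes were again near the background, but the average protein-coding gene is longer, so densities per length were compared next.

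Per length, col gene bodies held more summits than gene bodies at large in every relaxed list. In the pooled list there were 32 summits in 232 kb, a density of 13.8 per 100 kb with an exact 95% Poisson interval from 9.43 to 19.5, against 6.61 over all gene bodies. Replicate 1 gave 35.8 per 100 kb, against 20.3, and replicate 2 gave 33.2, against 22.8. Col promoters did not stand apart in this way, with 5.97 per 100 kb in the pooled list (interval 2.98 to 10.7), against 7.75 over all promoters. Their values were 25.5 against 21.5 in replicate 1 and 21.7 against 24.0 in replicate 2. The intervals cover the counting of summits only.

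Most of these summits lay in coding exons, with 25 of the 32 in the pooled list (78.1%), against 36.3% of the summits in all gene bodies. The density in coding exons was 16.5 per 100 kb (interval 10.7 to 24.4), against 6.11 over all coding exons. In introns it was 11.8 (interval 4.75 to 24.3), against 6.71. Of the 7 col intron summits, those of col-85, col-99 and col-72 lay at tRNA genes. The intron density includes them, and none without them is given here. In replicate 1 the coding exon density was 40.9, against 20.3, and in replicate 2 it was 33.7, against 21.3. The coding sequence was then divided into stretches that encode Gly-X-Y runs and the rest, a division chosen after these values were seen. Of the coding exon summits, 21 lay in Gly-X-Y stretches, a density of 28.5 per 100 kb (interval 17.6 to 43.5), and 4 lay in the rest, a density of 5.15 (interval 1.40 to 13.2). In replicate 1 the densities were 61.0 (interval 44.5 to 81.6) and 21.9 (interval 12.8 to 35.1), and in replicate 2 they were 40.7 (interval 27.4 to 58.1) and 27.0 (interval 16.7 to 41.3). The Gly-X-Y stretches were higher in all 3 lists, of which the pooled one is not independent of the replicates. The intervals overlap in replicate 2 and not in the pooled list or replicate 1. They are no test of a division chosen after the values were seen. Among the 21 summits, that of col-54 lay 20 bp from the tRNA-Arg gene F33D11.T2.

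GC content moved with this result. Within 50 bp of the pooled summits the median GC content was 59.4% in col gene bodies, against 38.6% in all gene bodies, and 34.7% in col promoters, against 38.6% in all promoters. The Gly-X-Y stretches had a GC content of 60.7%, and the rest of the col coding sequence had 49.1%. Over all protein-coding genes the pooled coding exon density rose with the GC content of the coding sequence, from 3.94 per 100 kb in the lowest of 4 equal bins of genes through 5.16 and 6.15 to 9.35 in the highest, which held 150 of the 156 col genes. Among genes with 45% to 50% GC the density was 18.1 for 21 col genes, against 8.29 for the others, with 40.8 against 23.1 in replicate 1 and 22.7 against 24.8 in replicate 2. From 50% to 55% it was 18.4 for 51 col genes, against 9.70, with 49.2 against 27.5 in replicate 1 and 34.8 against 28.4 in replicate 2. The col genes were thus higher in all 3 lists from 50% to 55%, and replicate 2 went the other way below that. From 55% to 60%, the bin with most col genes, 65 col genes had 13.0 and 200 other genes had 14.6. Above 60% there were 16 col genes with 25.1 and 32 other genes with 19.6, from 4 and 3 summits. The order of col and other genes thus differed between the bins. In the 55% to 60% bin the replicates gave 37.5 against 48.1 and 32.6 against 35.7, so that the other genes were higher there in every relaxed list. The part of GC content in the density of col summits was not tested.

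**Figure D4:**
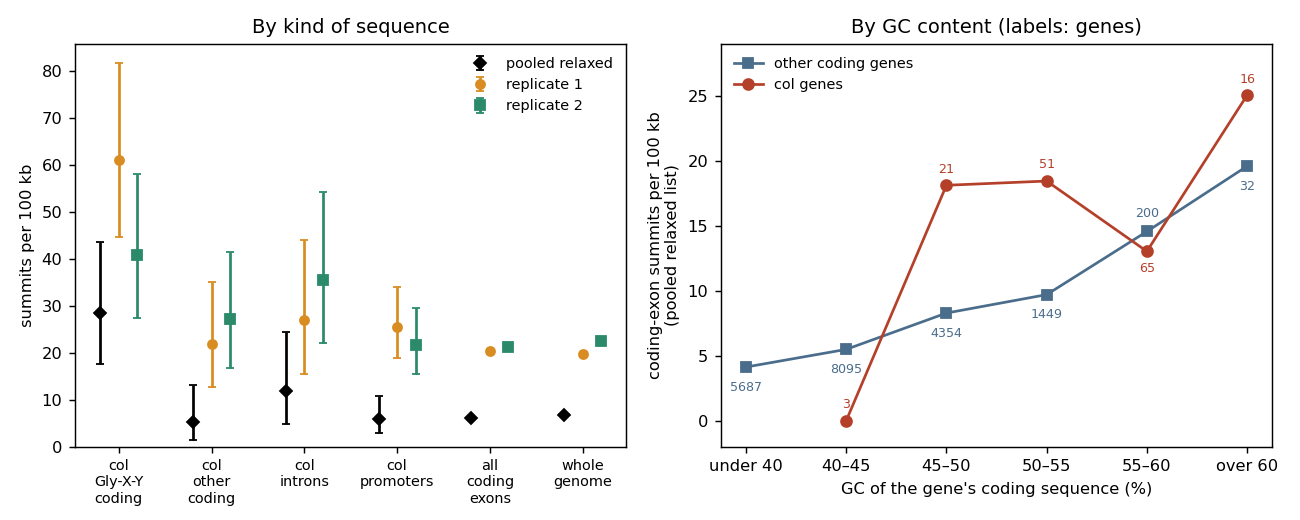
Left, summits per 100 kb by kind of sequence in the pooled list (black), replicate 1 (orange) and replicate 2 (green), with exact 95% Poisson intervals; Gly-X-Y coding sequence of col genes stood at 28.5, 61.0 and 40.7. Right, pooled coding exon summits per 100 kb by GC content of the coding sequence for col genes (red) and other protein-coding genes (blue), with the number of genes at each point, where other genes rose from 4.13 to 19.6.

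Recurring sequence was counted in these peaks, since how reads with several possible origins were handled was not given in the sources used here. Of the 21 Gly-X-Y summits, which lay in 21 genes, 11 were in peaks without any 31-base word that recurs in the genome, and 3 were in peaks with over 10% of such words. The part of recurring sequence in these summits was not tested. A peak in both replicate lists was present at 13 of the 21. Their pooled signal had a median of 31.1, with a range from 26.3 to 41.5, so that all were below the IDR range. Over all 42 distinct pooled peaks of col genes, 30 (71.4%) overlapped a peak in both replicate lists, against 62.1% of all pooled peaks. Replicate 1 was the higher in 21 of those 30 (70%), against 67.9% of all pooled peaks in both lists. The −log10 q value deposited by the authors was above 1 at 4 of the 42 peaks (9.52%), against 4.71% of all pooled peaks, and below 0.1 at 21 (50%), against 55.8%. Most peaks of the pooled list, at col genes and elsewhere, thus had low values of this measure.

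The strongest gene body summits away from tRNA genes were in coding exons of col-175, col-98 and col-151. In col-175 (X:9233898-9234333) the pooled summit lay 502 bp downstream of the 5′ end, between Gly-X-Y runs at 379 to 468 bp and 517 to 705 bp. The replicate peaks used here had summits at 685 bp (replicate 1) and 521 bp (replicate 2), inside such a run. The signal was 31.2 in replicate 1, 13.6 in replicate 2 and 45.1 in the pooled list, a replicate mean of 22.4 ± 12.5 (SD, n = 2). In col-98 (III:13019372-13019807), 582 bp downstream and in a Gly-X-Y stretch, it was 25.6, 17.7 and 41.5 in the same order, a replicate mean of 21.7 ± 5.56 (SD, n = 2). In col-151 (V:10393856-10394291), 1149 bp downstream and also in such a stretch, it was 33.3, 15.8 and 40.7, a replicate mean of 24.5 ± 12.4 (SD, n = 2). Replicate 1 was higher in each of these 3 genes. The 2 intron peaks of col-71 had pooled signals of 40.1 and 34.4, with 23.3 and 14.8 in replicate 1 and 20.9 and 16.4 in replicate 2. A peak in an intron of col-72 covered the tRNA-His gene W09G10.T1 with a pooled signal of 27.8 and had no overlapping peak in either replicate list.

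**Figure D5:**
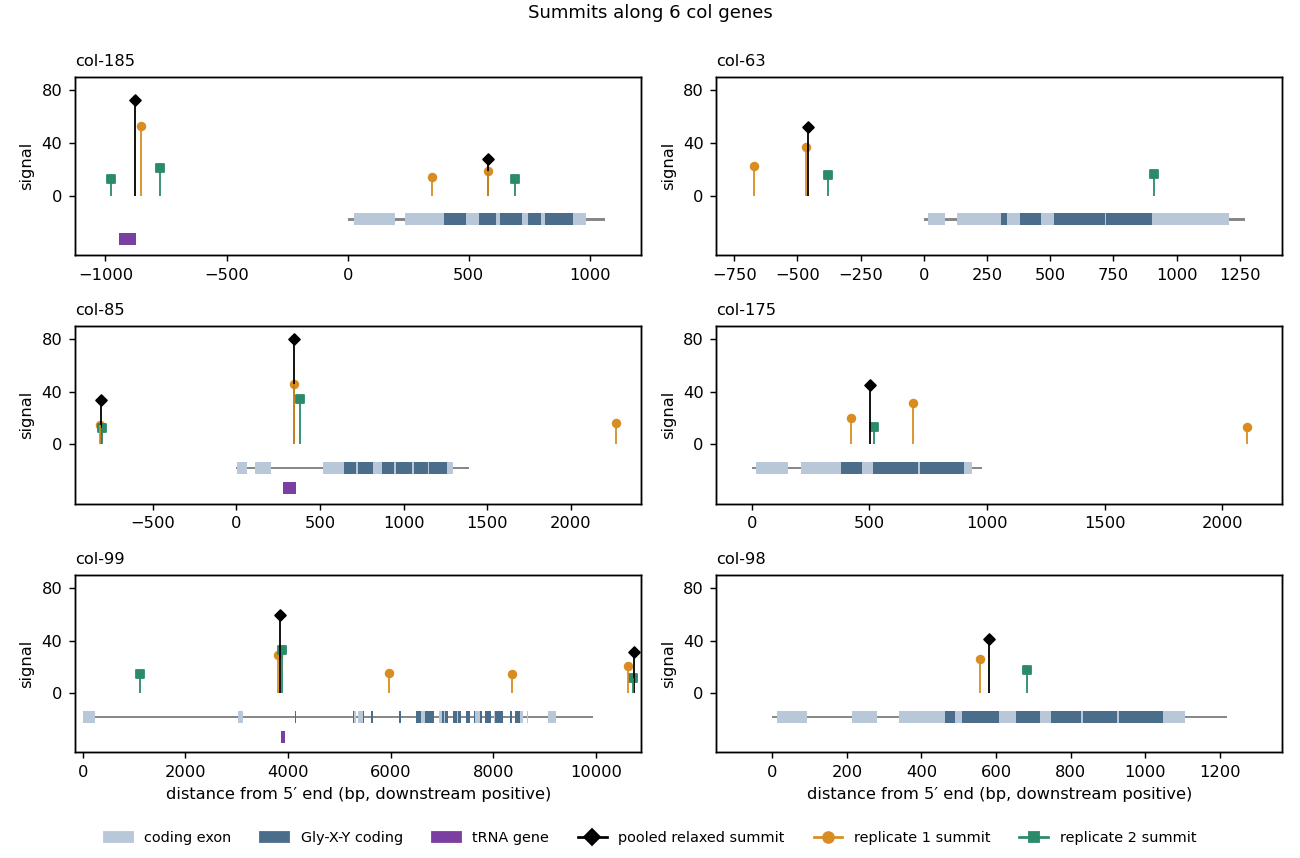
Summits (stems, height is the authors' signal) along col-185, col-85, col-99, col-63, col-175 and col-98 by distance from the 5′ end in bp, with coding exons (light), Gly-X-Y coding sequence (dark blue) and tRNA genes (purple) drawn below. The highest pooled stems of col-185 (72.8), col-85 (79.7) and col-99 (59.6) stand at a tRNA gene, and those of col-175 (45.1) and col-98 (41.5) stand in coding exons.

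Gene bodies with and without a pooled summit were alike in base composition among the col genes, with a median coding GC content of 55.1% and 55.2%. Their median lengths were 1269 bp and 1178 bp. By chromosome, promoter summits of the pooled list were at 4 of 41 col genes on IV, 3 of 24 on II, 3 of 27 on X and 1 of 21 on I, where 8.69%, 9.16%, 9.3% and 9.59% of all protein-coding genes had one. They were at none of 31 on V, against 8.25% of all genes, and none of 12 on III, against 9.85%. Replicate lists did have col promoter summits on V, with 8 in replicate 1 and 6 in replicate 2, and on III, with 2 and 4.

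E-boxes were looked for within 50 bp of each summit. None of the 11 pooled promoter summits of col genes had 1, and 0 of 11 allows a share of up to 27.3%, against 32.4% of the summits in all promoters. In replicate 1 it was 14 of 47 (29.8%), against 31.5%, and in replicate 2 it was 13 of 40 (32.5%), against 30.7%. Any position in a col promoter had a CANNTG within 50 bp in 33.1% of cases, so the replicate summits carried E-boxes about as often as the promoter sequence around them. In gene bodies, 13 of 32 pooled summits (40.6%) had an E-box, against 34.2% over all gene bodies, 35 of 83 (42.2%) in replicate 1, against 34.1%, and 39 of 77 (50.6%) in replicate 2, against 32.3%. Positions in col coding exons had 1 within 50 bp in 51.8% of cases and positions in all coding exons in 44.2%. The col gene body shares were above those of other gene bodies and below the 51.8% of col coding sequence, with replicate 2 close to it. These sets differ in kind of sequence, since 78.1% of the pooled col summits lay in coding exons, against 36.3%. The part of this difference in the E-box shares was not tested.

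The E-box types in the promoter sequence itself were also counted. From 250 bp before to 50 bp after the 5′ end, 72.4% of the col genes and 69.5% of all protein-coding genes held a CANNTG. The type CAGATG, counted on both strands, was in 39 col promoters (25%), against 14.2% of all. CACGTG was in 2 (1.28%), against 5.84%, and CAGCTG was in 3 (1.92%), against 5.55%. These types are counted separately, so that a promoter can hold several. They describe the promoter letters and not the binding of a factor.

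Among adult-stage collagens, the col-19 gene had no promoter or gene body summit in the IDR, pooled or replicate 2 lists. Replicate 1 had a promoter summit at 785 bp upstream of col-19 with a signal of 19.1. The col-7 gene had no such summit in any list. The col-120 gene had a summit 99 bp downstream of its 5′ end in replicate 1, with a signal of 16.4, and none in its promoter or gene body in the other lists. None of these 3 genes was thus found in both replicates, where over all genes 9.14% had a promoter summit and 24.7% a gene body summit in both.

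The median distance to the nearest summit was shorter for col genes than over all genes in each list. The median from a col 5′ end was 5064.5 bp in the pooled list, against 5374 bp over all protein-coding genes, 1160 bp against 1602 bp in replicate 1, and 1291.5 bp against 1444 bp in replicate 2. In the IDR list it was 140 kb against 191 kb. With the 5′ end of any transcript, the pooled medians were 5064.5 bp and 5109 bp. The upper quartile in the pooled list (12403 bp against 11628 bp) was longer for col genes. So was the lower quartile in replicate 2 (599 bp against 558 bp), while the other quartiles were shorter. After the 3 genes already described, the col genes nearest to an IDR summit were col-181, col-94, col-128, col-93 and col-72. The summit 1288 bp downstream of the col-181 5′ end was at the tRNA-Lys gene W03G11.T1, with a signal of 67.3 in replicate 1, 44.1 in replicate 2 and 113 in the IDR list. That 1863 bp upstream of col-94 was at the small nuclear RNA gene W05B2.8, with 75.2, 75.3 and 146, and the same summit was the nearest to col-93 at 4127 bp. That 2109 bp downstream of col-128 was at the small nucleolar RNA gene F12F6.11, with 33.8, 24.1 and 65.5. That 4988 bp downstream of col-72 was 41 bp from the tRNA-Lys gene W09G10.T2, with 43.3, 21.5 and 64.5. In each case the summit lay within 200 bp of a small RNA gene, as did 74.3% of all nuclear IDR summits.

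Genes that act beside the col genes were counted in the same way. Of 20 cuticle collagens with other names, which include the body shape genes of the dpy, sqt, rol and bli classes, 3 had a pooled promoter summit. They were sqt-2 with a pooled signal of 31.2, dpy-5 with 28.1 and dpy-3 with 26.4, and 3 of the 20 had a gene body summit. The promoter and gene body windows share 200 bp, and dpy-5 and dpy-3 had the same signal in both. Counting either window, 4 of the 20 (20%) had a pooled summit, against 22.7% of all genes. Of 11 genes for the modification, trimming and cross-linking of collagen, 2 had a pooled promoter summit. In pdi-2, a disulfide isomerase that is part of the prolyl hydroxylase, the pooled signal was 38.6, with 30.9 in replicate 1 and no promoter summit in replicate 2. In bli-5 it was 32.7, with 17.2 in replicate 2 and none in replicate 1. Neither gene had a promoter summit in both replicates. A pooled gene body summit was present at 3 of the 11 genes (27.3%), against 16.8% of all genes. Among them pdi-2 had the same signal, 38.6, as in its promoter.

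None of 20 genes for molting and other cuticle proteins had a pooled promoter summit, which allows a share of up to 15%, and 5 had a gene body summit. None of 9 epidermal regulators had a pooled promoter summit, which with so few genes allows a share of up to 33.3%. A pooled gene body summit was present at 1 of the 9 (11.1%), against 16.8% of all genes. This was lin-29, a zinc finger factor of the larval to adult switch in the epidermis, with a pooled signal of 56.8. Of the 3 basement membrane collagen genes, let-2, a type IV collagen chain, had a promoter summit with a pooled signal of 28.6, with 15.9 in replicate 2 and none in replicate 1. The highest pooled signal in the let-2 gene body was 41.7. No promoter or gene body of these 63 genes held an IDR summit, which allows a share of up to 4.76%. Over all genes the IDR shares were 0.365% for promoters and 0.536% for gene bodies, so a count of 0 does not set these genes apart. The background for the pooled counts of these lists is the same as for the col genes, 9.03% for promoters and 16.8% for gene bodies.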

How the data were processed

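Chromatin bound by GFP-tagged HLH-12 was sequenced in 2 biological replicates, per the labels. The authors deposited peak lists with a signal value, a −log10 q value and a summit offset (another number, the distance from the peak's start) for each peak. The signal was deposited as the authors' caller wrote it, while how it was scaled, the peak caller and the aligner were not given in the sources used here. Per the file listings, a control entered the calling of the relaxed lists and the IDR list was derived from the 3 relaxed lists. The pooled and IDR lists hold both replicates and are not independent of the replicate lists. No count or depth per sample is known. Only ce11 lists were used, with the Ensembl 115 annotation of WBcel235. The ce10 lists were not used here.

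For each gene the highest signal of any summit was taken over its promoter and its gene body, with the nearest summit, in Python 3.11.15 with numpy 2.4.6 and pandas 2.3.3. A replicate's value for a pooled peak is the highest signal of its peaks that overlap it. The counting was checked on simulated data. No p-value was computed, and members are set beside all 19973 genes. Named are col genes with IDR summits, the strongest promoter summits away from small RNA genes (up to 12), at them (up to 5) and in gene bodies (5), the 5 nearest to IDR summits, col-19, col-7, col-120 and col-99, and up to 3 genes for each further list. lin-29, and col-71 and col-72 as gene body summits, were named after their values were seen, as were the shown col-68 sequence, the types of E-box and the GC bins. The members and lists were chosen with earlier results of these data known. Alternatives changed the promoter window, the list, the 5′ end, the distance to small RNA genes and the E-box reach, and left out a replicate.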

Additional observations from a re-analysis of the deposited data

How the results depend on the processing

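The promoter count changed with the window and the list, and the shares of all protein-coding genes are given after each col share. With a promoter from 500 bp upstream, 3 col genes (1.92%) had a pooled summit, against 5.82%, and 3 had it away from small RNA genes, against 5.48%. In that window 0 had an IDR summit, against 0.205%, and 6 (3.85%) a summit in both replicate lists, against 4.71%. From 2000 bp upstream to 500 bp downstream, 21 (13.5%) had a pooled summit, against 16.5%, 17 (10.9%) away from small RNA genes, against 15.4%, 3 (1.92%) an IDR summit, against 0.641%, and 35 (22.4%) a summit in both replicate lists, against 22.9%. With the pooled list cut at its median signal, 4 (2.56%) had a promoter summit, against 4.78%, 3 (1.92%) away from small RNA genes, against 4.2%, and 19 (12.2%) a gene body summit, against 9.1%. The median distance to the nearest summit was then 10304 bp, against 11096 bp. With each summit counted for the nearest 5′ end alone, 7 (4.49%) had a promoter summit, against 7.44%, and 6 (3.85%) away from small RNA genes, against 6.88%. With any base of the peak in the window, 2 (1.28%) had an IDR peak, against 0.436%. With as many of the strongest peaks of each replicate as the pooled list has, 4 (2.56%) had a promoter summit in both, against 2.2%. Without summits at small RNA genes the median distance was 5715 bp, against 5819 bp. Within 100 bp of the summit, 27.3% of the pooled promoter summits had an E-box, against 52.4%. The strongest peaks of replicate 1 alone and of replicate 2 alone, in lists of pooled length, gave 14 (8.97%, against 8.88%) and 13 (8.33%, against 8.59%) promoters, 13 (8.33%, against 8.26%) and 12 (7.69%, against 8.11%) away from small RNA genes, and 27 (17.3%, against 17.3%) and 33 (21.2%, against 17.1%) gene bodies. In the same order, lists of IDR length gave 2 (1.28%, against 0.345%) and 0 (against 0.396%) promoters, the median distance was 4595 bp (against 5351 bp) and 4222 bp (against 5212 bp), and the E-box share was 14.3% (against 32.0%) and 30.8% (against 29.6%). The causes were not tested.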
